A study of Homo sapiens with 2 samples.

Results

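SMYD3 and CDYL are genes of chromatin proteins, and both carried many crosslink sites of hnRNPM in HMLE cells, a cell line derived from human breast epithelium. A site counted as a member when its middle base lay within the bounds of a gene and on its strand, on GRCh37: chr1:245912642-246670614 on the minus strand for SMYD3 and chr6:4706393-4955785 on the plus strand for CDYL. There were 228 such sites among 54373 in the whole list, 147 in SMYD3 and 81 in CDYL. The 2 genes were chosen by their sites in this same list, with the numbers of sites known, so those numbers are given as a description and without a test. The libraries were made to map hnRNPM on RNA, as one data set of a study on cryptic splicing linked to LINE repeats. It had 2 iCLIP libraries, labelled as biological replicates, of HMLE cells of WT genotype given DMSO. They formed 1 group, and the deposited list gave 1 height per site with no value per library, so no spread between cultures could be stated. Sites of a gene share its transcripts and are not replicates, and therefore no difference between the genes was tested.

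The protein hnRNPM is an abundant nuclear RNA-binding protein that takes part in the choice of splice sites and is known for contacting GU-rich stretches of pre-mRNA. In iCLIP, ultraviolet light fixes the protein to RNA, and reverse transcription that stops at the fixed base leaves a pile-up of read ends. The height of a site is the whole-number score that the authors deposited for it, read here as the number of such ends. Each site name also carries a cluster number and a second value, PH0. The file defines neither, and they are read here as the tag cluster, a run of overlapping reads, and the height expected in it by chance placement of the reads. SMYD3 encodes a lysine methyltransferase with a SET and a MYND domain, described as a methyltransferase of histones and of cytoplasmic kinases. CDYL encodes a chromodomain protein that reads repressive histone methylation and acts as a corepressor, and it also has a domain related to enoyl-CoA hydratases. The expression of either gene was not measured in the list, and more RNA and more binding per RNA cannot be told apart.

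CDYL began with a long part free of sites, while SMYD3 had a site close to its 5′ end. The first site of SMYD3 lay 998 nt inside the 5′ bound. The first site of CDYL lay 72.1 kb inside, and it was also the tallest of the gene, with a height of 85. RefSeq (GRCh38.p14) lists 3 start sites for CDYL, with the second 70.3 kb and the third 184 kb after the first. In GENCODE release 29 the 5 coding transcripts of CDYL begin at the start of the gene (CDYL-201) and 66.8 kb (CDYL-204), 70.3 kb (CDYL-203), 130 kb (CDYL-205) and 184 kb (CDYL-202) after it. These distances were measured within GRCh38 and those of the sites within GRCh37, and no position was converted. The length of the gene was 249393 nt in both the bounds used here and GENCODE, and for SMYD3 the lengths differed by 2 nt. Which start sites HMLE cells use was not tested.

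The 250 bases before the first and second RefSeq starts of CDYL are shown because they bracket that site-free part. Those before the first start of SMYD3 are shown because a site followed within 1 kb of the bound. They are RefSeq sequences on GRCh38.p14, on the strand of the gene, 5′ to 3′, with each CG dinucleotide in capitals. They lie at chr6:4705888-4706137 and chr6:4776154-4776403 on the plus strand and at chr1:246507280-246507529 on the minus strand.
CDYL first start: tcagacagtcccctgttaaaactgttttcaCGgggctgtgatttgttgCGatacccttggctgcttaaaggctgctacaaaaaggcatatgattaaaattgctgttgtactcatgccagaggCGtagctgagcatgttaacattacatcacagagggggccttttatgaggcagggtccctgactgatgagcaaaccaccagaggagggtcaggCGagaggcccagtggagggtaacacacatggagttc
CDYL second start: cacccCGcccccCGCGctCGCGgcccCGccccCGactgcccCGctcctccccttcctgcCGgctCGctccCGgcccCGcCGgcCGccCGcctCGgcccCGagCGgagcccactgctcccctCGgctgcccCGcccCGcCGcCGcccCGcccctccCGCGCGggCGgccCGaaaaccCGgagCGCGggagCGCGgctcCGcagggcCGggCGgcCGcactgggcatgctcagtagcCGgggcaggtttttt
SMYD3 first start: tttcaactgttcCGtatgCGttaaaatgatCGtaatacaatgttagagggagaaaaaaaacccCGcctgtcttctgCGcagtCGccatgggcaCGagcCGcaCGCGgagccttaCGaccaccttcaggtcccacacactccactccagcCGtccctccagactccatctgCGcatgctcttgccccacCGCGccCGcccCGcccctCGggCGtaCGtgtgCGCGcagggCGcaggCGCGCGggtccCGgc
The sequence before the first start of CDYL held 4 CG dinucleotides and had a GC content of 49.6%. The one before the second start held 39, at 82.8% GC. As many or more CG were found in 70.7% of 35116 RefSeq promoter windows of this length for the first and in 2.65% for the second. The SMYD3 sequence held 27 CG at 63.2% GC, and 17.7% of windows had as many. CG reads the same on both strands, and a count of these letters is a description of the window. The sequences of the crosslink sites themselves are not shown, since no genome of the build of the list was used here.

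**Figure D1:**
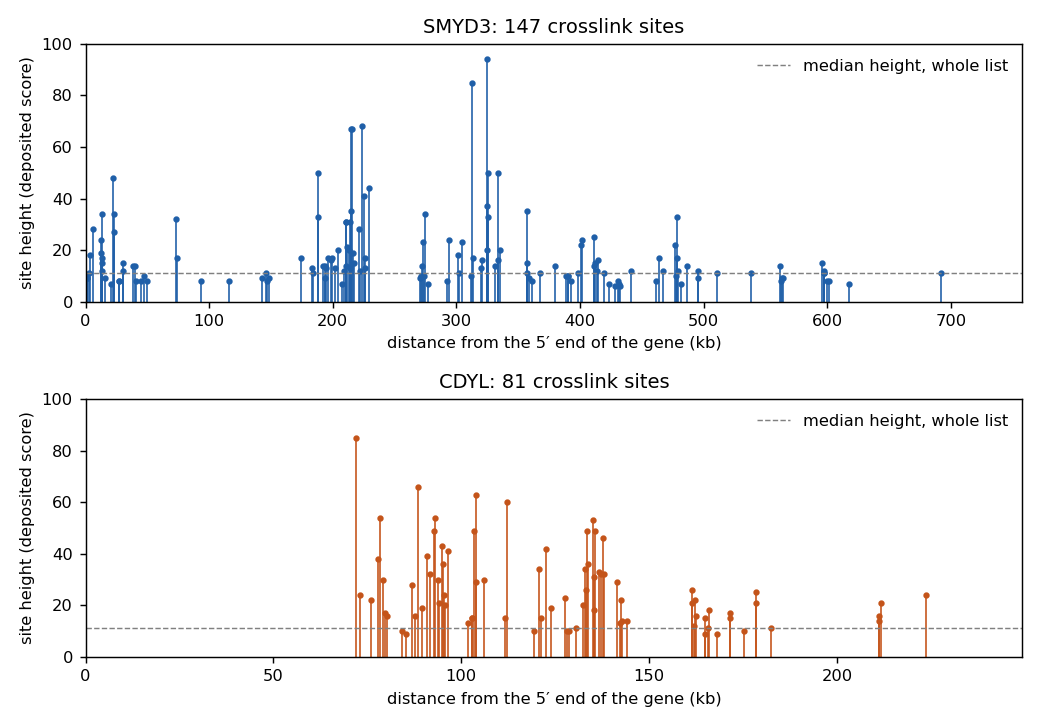
Height (deposited score, y axis) of each crosslink site against its distance in kb from the 5′ bound of the gene (x axis), for SMYD3 (top) and CDYL (bottom). Each line is 1 site and the dashed line marks 11, the list's median. The 147 sites of SMYD3 run from 0.998 kb to 692 kb, and the 81 sites of CDYL start at 72.1 kb.

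CDYL was the more densely occupied gene. It had 32.5 sites per 100 kb over its 249 kb, and SMYD3 had 19.4 per 100 kb over its 758 kb. Counted from the first to the last site, the densities were 53.4 and 21.3 per 100 kb.

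On both genes sites were found on the sense strand alone. Neither bound held a site of the other strand. The nearest sites of the other strand lay 103 kb beyond the 5′ bound of SMYD3 and 186 kb beyond the 3′ bound of CDYL. GENCODE places antisense RNA genes inside both genes, and these strands had no site. It also places short genes on the sense strand inside SMYD3, among them SMYD3-IT1, a sense-intronic RNA of 776 nt, and sites of such a gene cannot be told apart from those of SMYD3.

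Just outside the bounds, same-strand sites were far away. The nearest one before the 5′ end of SMYD3 lay 46.0 kb out, at chr1:246716609-246716629, with a height of 11. In GENCODE the next coding gene on that side is TFB2M, on the same strand. The nearest one past the 3′ end lay 895 kb out. For CDYL the distances were 667 kb before the 5′ end and 311 kb past the 3′ end.

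The sites of SMYD3 lay mostly in its 5′ part, and those of CDYL in its middle. In SMYD3, 101 of 147 sites (68.7%) were in the 5′ 50% of the gene. In CDYL this was 39 of 81 (48.1%). Each gene was divided into 10 parts of equal length, numbered from the 5′ end. SMYD3 had the most sites in part 3 (34) and part 1 (28), with 6 in part 2 between them and 1 each in parts 9 and 10. CDYL had no site in parts 1, 2 and 10, and its parts 4, 5 and 6 held 23, 14 and 22. The 3′ parts without sites measured 65.9 kb in SMYD3 and 25.6 kb in CDYL.

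**Figure D2:**
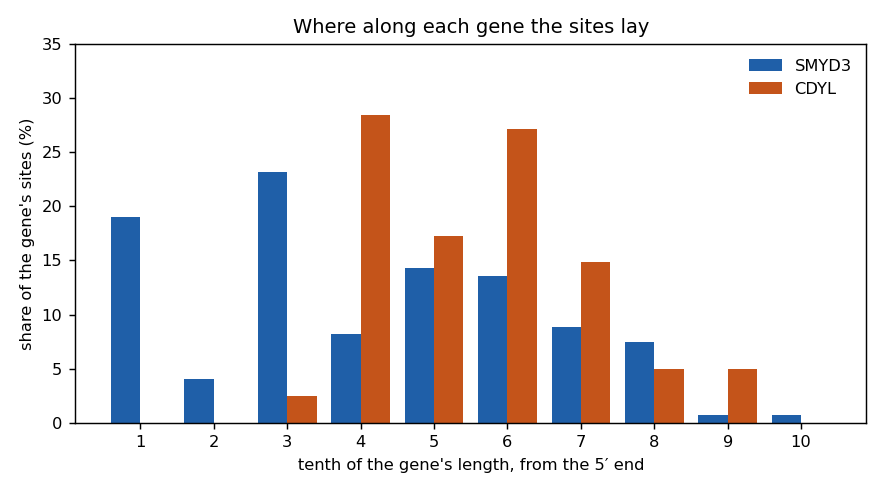
Share of each gene's sites in percent (y axis) in each of 10 equal parts of the gene's length, numbered from the 5′ end (x axis), with SMYD3 in blue and CDYL in orange. SMYD3 has 23.1% of its sites in part 3, and CDYL has 28.4% in part 4 and 27.2% in part 6.

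SMYD3, a gene of 758 kb, was broken into more groups of sites than CDYL, of 249 kb. The numbers of groups were not scaled to the lengths of the genes. Sites were grouped into blocks that ended where the next site was at least 20 kb away, a limit chosen after the data were seen. The number of blocks depended on this limit: a limit of 10 kb gave 17 in SMYD3 and 4 in CDYL, and one of 30 kb gave 4 and 1. With 20 kb SMYD3 had 11 blocks, 3 of them single sites, and its 4 blocks of at least 10 sites held 126 sites (85.7%). CDYL had 2 blocks, and the first, from 72.1 to 183 kb after the 5′ bound, held 77 of 81 sites (95.1%). That block spanned 110 kb. The longest introns of the coding transcripts of CDYL measured 157 kb in CDYL-201, 162 kb in CDYL-204, 115 kb in CDYL-203, 55.4 kb in CDYL-205 and 43.1 kb in CDYL-202, and which of them hold the block was not analysed here. In GENCODE exons of any transcript made up 1.82% of CDYL and 0.77% of SMYD3, and the transcript SMYD3-214, which runs nearly the length of the gene, has 4 introns over 50 kb, the longest of 397 kb. Single sites were not assigned to exons or introns.

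The 4 fuller blocks of SMYD3 differed in density and height. From the 5′ end, the first held 26 sites over 48.6 kb (0.998 to 49.6 kb after the bound), with heights around a median of 13 and up to 48. The second, from 174 to 230 kb, held 35 sites over 55.6 kb, the highest density of the 4 at 6.29 sites per 10 kb, with a median of 17. The third, from 270.3 to 335 kb, held 26 sites with a median of 17.5 and included the tallest site of the gene. The last, from 357 to 511 kb, held 39 sites over 153 kb, with a median of 11 and none above 35. The middle pair of blocks thus carried 61 sites (41.5%) and 56.4% of the summed height of SMYD3, and the other 86 sites had a median height of 11, the same as the whole list.

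Tall sites of SMYD3 lay mostly in its middle pair of blocks. Those of CDYL were distributed over the 5′ part of its main block, where most of its sites also lay. A height of at least 40 was reached by 4.44% of all sites in the list, by 11 of 147 sites in SMYD3 (7.48%) and by 15 of 81 in CDYL (18.5%). In SMYD3, 10 of the 11 lay in the middle pair of blocks. In CDYL all 15 lay between 72.1 and 138 kb after the 5′ bound, in 10 tag clusters, and the 3′ block reached 24 at most. Neither gene had a site of a height of 100, whereas the whole list reached 1969.

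In SMYD3 the tallest site, at chr1:246346205-246346225, had a height of 94, which was 46.8 times the expected height of its tag cluster. The next, at chr1:246358156-246358176, reached 85 and stood alone in its tag cluster, at 68.5 times the expected height, the highest ratio in the gene. Sites at chr1:246447193-246447213, chr1:246455354-246455374 and chr1:246455539-246455559 followed with 68, 67 and 67, all 215 to 223 kb after the 5′ bound. The last pair lay 185 nt apart but in neighbouring tag clusters. Of the remaining 5 of the 10 tallest, 3 had a height of 50, at chr1:246336552-246336572, chr1:246345073-246345093 and chr1:246482897-246482917. The other two had 48, at chr1:246648113-246648133, and 44, at chr1:246441070-246441090. The site of height 48 was the one tall site near the 5′ end, 22.5 kb after the bound. The 10 tallest held 23.0% of the summed height of SMYD3, 2712.

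In CDYL the tallest site, at chr6:4778480-4778500, had a height of 85, or 37.6 times expected. The site that followed it in the same tag cluster had 24. Next came chr6:4795010-4795030 with 66, chr6:4810367-4810387 with 63 and chr6:4818606-4818626 with 60, the last at 61.9 times expected, the highest ratio in the gene. Heights of 54 were found at chr6:4784749-4784769 and chr6:4799385-4799405. A height of 53 was found at chr6:4841510-4841530, and 49 at chr6:4799235-4799255, chr6:4809697-4809717 and chr6:4839815-4839835. These 10 sites fell into 8 tag clusters between 72.1 and 135 kb after the 5′ bound, and they held 26.8% of the summed height of CDYL, 2170. The first tall site thus stood at the very start of the occupied part, and the others were distributed over the part behind it.

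Sites of CDYL were on the whole taller than those of SMYD3 and of the list, but not relative to what the tag cluster predicted. The median height was 22 in CDYL (quartiles 15 and 34), 14 in SMYD3 (10 and 20) and 11 in the whole list (8 and 17). Of the sites in CDYL, 70 (86.4%) were above the median of the list, and 90 (61.2%) in SMYD3. The median expected height was 1.24 in CDYL, 0.64 in SMYD3 and 0.51 in the list. The ratio of height to expected height had a median of 18.5 in CDYL, 23.5 in SMYD3 and 23.7 in the list. The order of CDYL and the list thus turned round on this scale. The largest deposited P in the list was 0.000999, and a low expected height needs a higher ratio to stay below it. A SMYD3 site of expected height 0.2 had a ratio of 30 and a P of 0.000217. A CDYL site of expected height 2.79 had 6.45 and 4.43e-05. How far this limit on P set the median ratios was not tested. The smallest P that the authors deposited, 1e-100, was given to 16.2% of all sites, to 24 of 147 in SMYD3 (16.3%) and to 29 of 81 in CDYL (35.8%). In the CDYL tag cluster with the most sites, this P fell with height and then levelled off. There, heights of 20, 21 and 24 had 4.09e-09, 3.99e-10 and 1.43e-12, and all taller sites had 7.14e-13. Between tag clusters this P did not always follow height: the tallest site of SMYD3, of height 94, had 3.11e-13, and one of height 14 had 1e-100. The share at the smallest P is therefore given as a description of the deposited values. With a P of at most 1e-10 the sites left numbered 66 in SMYD3 and 52 in CDYL.

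**Figure D3:**
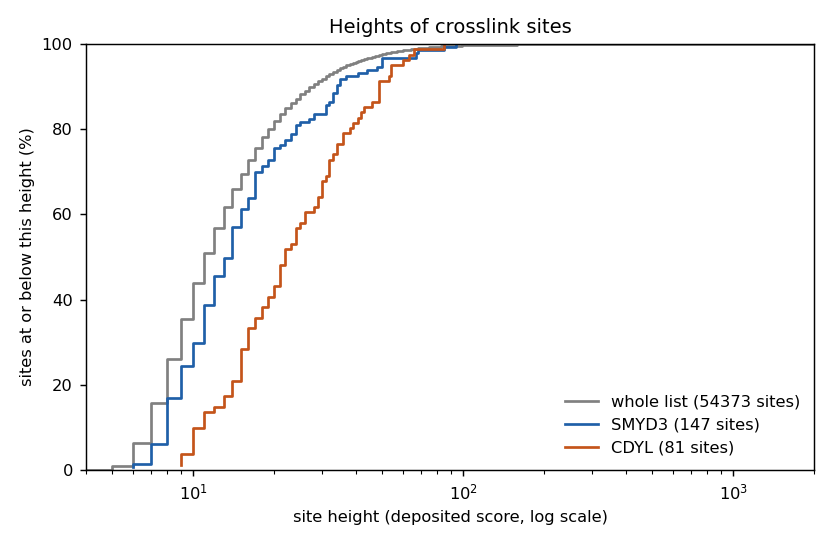
Cumulative share of sites in percent (y axis) at or below a height (deposited score, x axis, log scale) for the whole list (grey), SMYD3 (blue) and CDYL (orange). The curve of CDYL lies to the right, with a median of 22 against 14 in SMYD3 and 11 in the list.

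The occupied tag clusters of CDYL more often held several sites. The sites of SMYD3 fell into 102 tag clusters, of which 29 (28.4%) held 2 or more, and those of CDYL into 37, of which 19 (51.4%) did. In the whole list 23.3% of 40129 clusters with a site held 2 or more. Thus 63 of 81 sites in CDYL shared their cluster with another site, and 74 of 147 in SMYD3.

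The fullest cluster of CDYL held 10 sites over 4.83 kb (chr6:4798086-4802912), a number that 11 clusters of the list reached. From 5′ to 3′ its heights were 32, 49, 54, 30, 21, 43, 36, 24, 20 and 41. No single site dominated it, and together the 10 held 16.1% of all height in CDYL. The next, chr6:4839501-4841945, held 7 sites with heights of 26, 49, 36, 53, 18, 31 and 49. It had the highest expected height of any CDYL site, 2.79. The third, chr6:4867768-4868907, held 5 sites of 26, 21, 12, 22 and 16, lower than both.

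In SMYD3 no cluster held more than 5 sites. The one at chr1:246344852-246346225 carried heights of 94, 37, 20, 50 and 33 from 5′ to 3′ over 1.37 kb. It contained the tallest site and 8.63% of the summed height of the gene. The one at chr1:246455539-246457062 had 20, 13, 31, 35 and 67, with its tallest site at the 3′ end. The third, chr1:246459028-246459996, held 4 sites of 31, 31, 14 and 21.

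**Figure D4:**
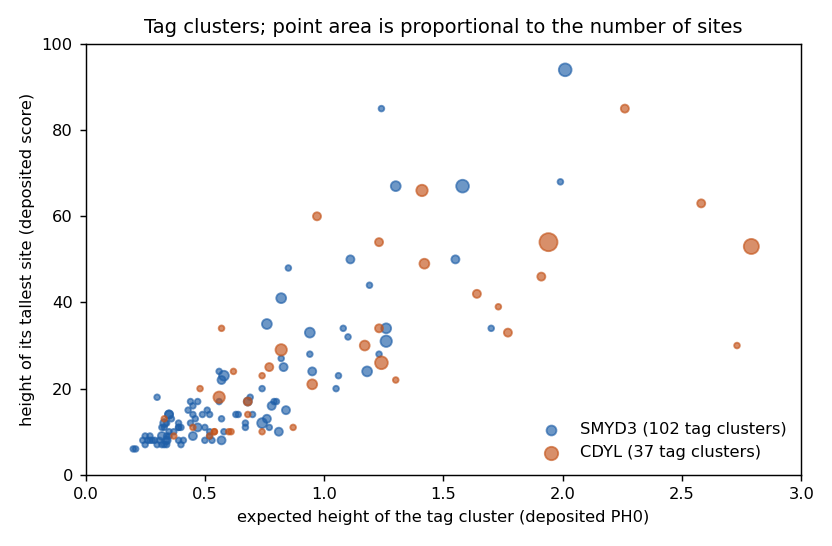
Height of the tallest site of each tag cluster (deposited score, y axis) against the expected height of the cluster (deposited PH0, x axis), for 102 clusters of SMYD3 (blue) and 37 of CDYL (orange). Point area is proportional to the number of sites, and the largest points are the CDYL clusters of 10 and 7 sites, at expected heights of 1.94 and 2.79.

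Neighbouring sites were closer together in CDYL. The median gap was 752 nt in CDYL (quartiles 357 and 1535), 1494 nt in SMYD3 (543 and 3930) and 1920 nt in the list. Gaps under 1 kb made up 60.0% of the 80 gaps in CDYL, 40.4% of the 146 in SMYD3 and 36.9% in the list. Pairs at most 59 nt apart numbered 5 in CDYL and 10 in SMYD3, that is 6.25% and 6.85% of neighbours, beside 5.98% in the list. Each of these pairs lay inside 1 tag cluster, as did all 3249 such pairs of the list. The taller site was the upstream one in 7 of the 10 pairs in SMYD3 and in 3 of the 5 in CDYL, too few to compare with the 1899 of 3249 in the list.

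Long gaps took up much of SMYD3. Its 10 gaps of at least 20 kb between sites added up to 319 kb, 42.1% of the gene. CDYL had 1 such gap, of 28.5 kb, which was 11.4% of the gene. The site-free ends were not counted as gaps. They measured 65.9 kb at the 3′ end of SMYD3, and 72.1 kb and 25.6 kb at the 5′ and 3′ ends of CDYL. These shares therefore do not compare the whole site-free length of the 2 genes. With these ends added to the long gaps, the site-free shares of the 2 genes come close to each other. The longest gap of SMYD3 was 74.6 kb, from 618 to 692 kb after the 5′ bound, before its last single site. The next was 40.8 kb, from 230 to 270.3 kb, and separated the 2 blocks that carried 10 of the 11 tall sites. The third was 32.0 kb, from 564 to 596 kb. In CDYL the 3 longest were 28.5, 17.2 and 12.0 kb, all behind the part with the tall sites.

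The long gaps without sites were not gaps in the numbering of tag clusters. The authors numbered tag clusters along each strand, and in all 54327 pairs of neighbouring sites of a strand the number rose or stayed the same with position. Numbers skipped between sites were read here as tag clusters with no listed site, which the file does not state. Between the first and last site the numbers spanned 3427 in SMYD3 and 508 in CDYL, of which 2.98% and 7.28% had a site, beside 0.829% in the list. The share of the list was taken along each whole strand, from its first to its last site. The genes were chosen for their many sites, so these shares describe unlike stretches. In the 10 long gaps of SMYD3 between 4.87 and 6.23 numbers were skipped per kb, and the longest gap skipped 406. The long gap of CDYL skipped 167, or 5.85 per kb. In the list, gaps of 20 to under 50 kb had a median of 5.67 per kb (quartiles 4.97 and 6.23). Gaps of 50 to under 100 kb, the class of the longest gap of SMYD3 with its 5.44 per kb, had a median of 4.50 (2.88 and 5.61).

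Beyond the outermost sites of the genes numbers were sparser than between them, where there were 4.96 per kb in SMYD3 and 3.35 in CDYL. Along the whole strands of the list there were 0.831 per kb. From the first site of SMYD3 to the next site of the strand upstream there were 1.15 numbers per kb, and from its last site to the next one downstream 0.763. For CDYL these values were 0.556 upstream and 0.985 downstream. The upstream stretch of CDYL, 739 kb, contains the site-free first 72.1 kb of the gene, and how its 411 numbers divide between the gene and the sequence before it cannot be told from the list. The downstream stretches likewise contain the site-free last 65.9 kb of SMYD3 and 25.6 kb of CDYL. Inside the genes, the main block of CDYL had 2.49 numbers per kb. The 4 fuller blocks of SMYD3 had 4.53, 3.27, 4.49 and 4.95 from the 5′ end, and the last of these lay within the range of the long gaps. The length of tag clusters is not in the list, and its part in these values was not tested.

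**Figure D5:**
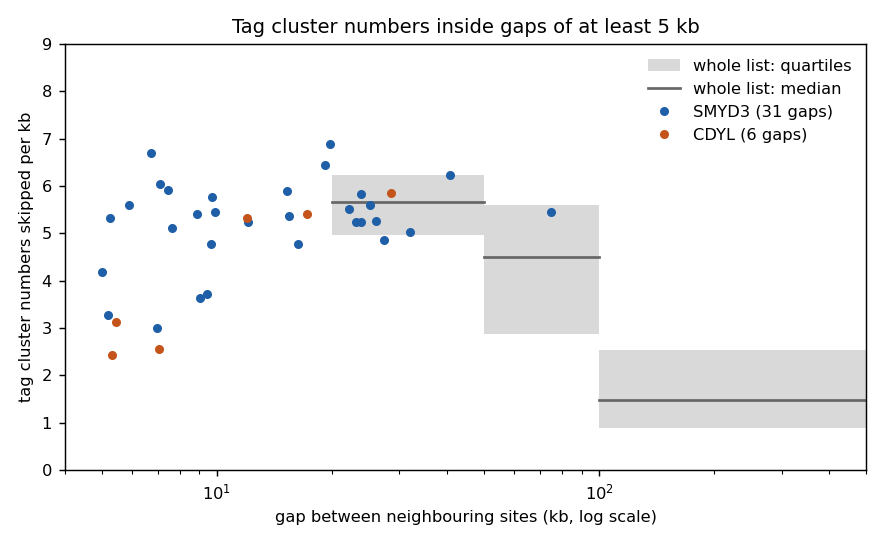
Tag cluster numbers skipped per kb (y axis) in each gap of at least 5 kb between neighbouring sites, against the length of the gap in kb (x axis, log scale), for SMYD3 (blue) and CDYL (orange). Grey bars are the quartiles and dark lines the medians of the whole list by gap class, and the gaps of at least 20 kb in both genes lie between 4.87 and 6.23 per kb.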

How the data were processed

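Binding of hnRNPM was measured by iCLIP in 2 libraries of HMLE cells, after ultraviolet crosslinking and precipitation with an anti-hnRNPM antibody, per the labels' protocols. Positions are on GRCh37, a build taken from the submitters' processing notes. Aligner, caller of sites, handling of PCR duplicates and pooling are not given in the sources used here. In 1 list the authors deposited 54373 sites of 21 nt with a whole-number score per site, called the height here, which equals the PH value that each site name carries. The name also holds a P and 2 items read here as a tag cluster number and an expected height (PH0, 1 value per cluster). The list was taken as pooled over both libraries. It gives no depth, so no replicate could be left out or compared.

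Gene bounds were fixed on GRCh37, and sites were placed by their middle base and strand. The members, the lists and the naming rule (in each gene the 10 tallest sites, the 3 fullest tag clusters and the 3 longest gaps) were chosen with earlier results of these data known. Positions are 1-based. GENCODE 29 and RefSeq gave gene structure and promoters on GRCh38, used for lengths and distances within that build. Both gene symbols matched. Site sequences, exons at sites and a list of related chromatin genes were not analysed here. No test was run. The functions that read the list, placed sites and gave counts, median heights, gaps and blocks were tested on simulated data with known sites. Those for merging, intervals, wider bounds and placement by overlap were not. Alternatives were the upper 50% of the list by height, merging of sites within 50 nt, P of at most 1e-10, wider bounds, other rules of placement and strand, height over expected height, and other limits for blocks. Software was matplotlib 3.10.9, scipy 1.17.1, pandas 2.3.3 and numpy 2.4.6 under Python 3.11.15.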

Additional observations from a re-analysis of the deposited data

How the results depend on the processing

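Of 40 values recomputed with another setting, 27 stayed near the reported one (counts within 1.5 times, medians and shares within a 95% binomial interval, the longest gap identical) and 13 moved. Both kinds of interval cover the scatter of sites and not of cultures. Merging, widened bounds, placement by overlap and counting both strands moved none of the values. In the upper 50% of the list by height SMYD3 had 91 sites with a median height of 17, and 78.0% of them lay in its 5′ 50%. With a P of at most 1e-10 there were 66 sites in SMYD3 with a median of 22.5, and 52 in CDYL with a median of 30.5. The other 4 that moved (the longest gaps, the tag clusters of SMYD3 and the share of CDYL clusters with several sites) did so in the upper 50% as well. Fewer and taller sites follow from these settings by construction. As height over expected height the medians were 23.5 in SMYD3 and 18.5 in CDYL, which is another scale. The number of blocks, with a limit chosen after seeing the data, was 17 in SMYD3 and 4 in CDYL with gaps of 10 kb and 4 and 1 with gaps of 30 kb, in place of 11 and 2. No paired analysis was possible because both libraries belong to 1 group and share 1 height per site. Depth is unknown, so how many low sites were missed cannot be stated.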

Other observations

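The authors also gave each site a running number that rose with position along every strand. Numbers present in the list made up 24.2% of the range. Between the first and last site they made up 24.1% of 610 numbers in SMYD3 and 20.7% of 392 in CDYL. In the 10 long gaps of SMYD3 together, 80 numbers were skipped, and 10 in the long gap of CDYL. What the absent numbers stand for is not stated in the file. Same-strand sites were also joined into stretches wherever the next site was within 50 kb. All 81 sites of CDYL formed 1 stretch. In SMYD3 the stretch left out the last single site, beyond the longest gap, and took in the site 46.0 kb before the 5′ bound.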
